A study of Mus musculus with 6 samples.

Results

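The clustered protocadherin genes are the protein-coding mouse genes whose symbols begin with Pcdha, Pcdhb or Pcdhg. In GENCODE release M21 they number 57 among the 55400 genes of the deposited table, with 14 in the Pcdha cluster, 22 in Pcdhb and 21 in Pcdhg. All 57 lie on the plus strand of chromosome 18 in the mm10 build. The Pcdha cluster runs from 36930184 to 37187661, the Pcdhb cluster from 37264938 to 37524479 and the Pcdhg cluster from 37661793 to 37841873. The rule takes members by symbol alone and uses no measured value, though it was chosen with earlier results of these data known. Pcdhgb8, annotated as a polymorphic pseudogene, falls outside that rule. One symbol, Pcdha11, is carried by 2 identifiers, ENSMUSG00000007440 and ENSMUSG00000102206, which are kept apart here. The first starts at 37005203, between Pcdha9 at 36997880 and the second at 37010712, and no member carries the symbol Pcdha10.

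Clustered protocadherins are cadherin-like adhesion molecules of the neuronal surface. In the Pcdha and Pcdhg clusters every gene has its own promoter and its own large variable exon, which encodes the extracellular and transmembrane part, and each variable exon is spliced to a set of constant exons that the whole cluster shares and that encode a common cytoplasmic tail. Pcdhb genes are single-exon genes with no constant part. Promoter choice in single neurons is largely stochastic for the alternate genes, depends on CTCF, cohesin and distal enhancers, and is opposed by promoter DNA methylation. The c-type genes Pcdhac1, Pcdhac2, Pcdhgc3, Pcdhgc4 and Pcdhgc5 follow other rules and tend to be expressed in most cells of a neuron class. The proteins bind like to like, serve self-recognition of neurites, and in the mouse the Pcdhg cluster is needed for the survival of spinal interneurons.

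The 6 libraries of polyadenylated RNA came from motor neuron progenitors made in culture from C57BL/6 mouse embryonic stem cells of WT genotype and harvested on day 4, with 3 libraries labelled Setd5sh and 3 labelled control. The name Setd5sh reads like a hairpin construct aimed at Setd5, which no label states outright; whether control cells carried another hairpin, and whether each line was 1 clone, is not given. As far as the labels say, both groups share every other treatment: stem cells were kept on a layer of mouse embryonic fibroblasts, aggregated into embryoid bodies of 500 cells, given 1 µM retinoic acid and 0.5 µM SAG, an activator of Sonic hedgehog signalling, from day 2, and given 1 µg/mL doxycycline for 36 h. The labels do not tie replicates to independent cultures, and p-values describe the variation among these libraries, part of which may be technical.

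Total counts were 20726820, 27660851 and 19639303 in Setd5sh replicates 1, 2 and 3 and 32046466, 27153918 and 19871993 in control replicates 1, 2 and 3. Levels are given as CPM, the count scaled to the library's total with edgeR's TMM correction. Setd5 itself stood at 278.1, 243.1 and 241.7 CPM in Setd5sh libraries and at 394.4, 332.0 and 313.9 CPM in control libraries, so every Setd5sh library was below every control library (log2 fold change -0.45, SE 0.17, edgeR adjusted p = 0.986, exact two-sided permutation p = 0.1, the smallest that 3 against 3 allows), though the difference did not pass the test across all genes. Control replicate 1 stood apart: it had counts in 26505 genes, against 20979 to 23637 in the other 5 libraries, and its chi-square per degree of freedom was 152.5 and 159.3 against its own replicates, which differed from each other by 24.6. It also had the highest total count, and both measures can rise with depth, whose part was not tested. Markers of motor neuron progenitors were present throughout, with Olig2 at 188.7 to 308.2 CPM in Setd5sh and 159.8 to 198.1 CPM in control libraries. All 9 were tested and 0 passed. A positive log2 fold change was found for 8, and the median was 0.40. At an unadjusted p under 0.05 by edgeR, 3 (Nes, Neurog2 and Olig1) were higher in Setd5sh, as were 0.845% of all tested genes. Summed over 7 pluripotency markers the level was 8.05 to 54.6 CPM in Setd5sh and 17.9 to 73.1 CPM in control, and over 9 fibroblast markers 84.0 to 111.1 CPM in Setd5sh and 55.4 to 98.6 CPM in control, most of it Col1a2. Of the other fibroblast markers, Col1a1 ran from 4.1 to 17.4 CPM, Col3a1 from 3.09 to 6.95 CPM and Pdgfra from 1.62 to 2.81 CPM over the 6 libraries, and Lum, Postn, Thy1, Twist2 and Dcn each stayed under 1 CPM.

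How a read is counted decides what can be seen of these genes. Exonic bases that belong to more than 1 annotated gene made up 48.6% to 93.0% of the length of Pcdha members and 31.5% to 100% of Pcdhg members. The constant exons are annotated in every gene of their cluster, and in some members other genes overlap the variable exon too: the highest shares are those of Pcdha4, overlapped by the readthrough model Gm42416 and the antisense gene Gm38225, and Pcdhga10, overlapped by Gm26672 on the opposite strand. In Pcdhb this share was 0% for 19 of 22 members and reached 63.5% for Pcdhb12. The deposited counts behave as if reads in shared bases had been left out without regard to strand. Of 461 genes in the table whose every exonic base is shared once both strands are considered, but not on their own strand alone, only 8 had any count in any library, and of 763 genes with no unshared base on their own strand 58 had one. The counts of Pcdha and Pcdhg members therefore come almost wholly from unshared bases, which in most members are those of the variable exon. Pcdhgb4 has 3588 unshared bases but a first exonic block of 2549, so part of its unshared length lies outside its variable exon. The shared constant exons, and so the total output of either cluster, are not measured by these counts. The authors' FPKM divides by a length that includes the constant exons. Levels are compared between genes as CPM per kilobase of unshared exon, for the 55 members with at least 1000 such bases.

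The 3 clusters stood at different levels in these progenitors. The Pcdhg cluster supplied 90.9% ± 2.55 of all member counts in Setd5sh libraries and 92.2% ± 4.94 in control libraries (SD, n = 3 each). The Pcdhb cluster supplied 8.55% ± 2.49 in Setd5sh and 7.31% ± 4.82 in control, and the Pcdha cluster 0.498% ± 0.222 in Setd5sh and 0.496% ± 0.135 in control. Per unshared kilobase the Pcdhg cluster averaged 1.96 CPM over the 6 libraries, Pcdhb 0.103 CPM and Pcdha 0.0189 CPM, and this order held in every library with no overlap between clusters. The median unshared length was 2601 bases in Pcdhg, 3714 bases in Pcdhb and 2475 bases in Pcdha.

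**Figure D1:**
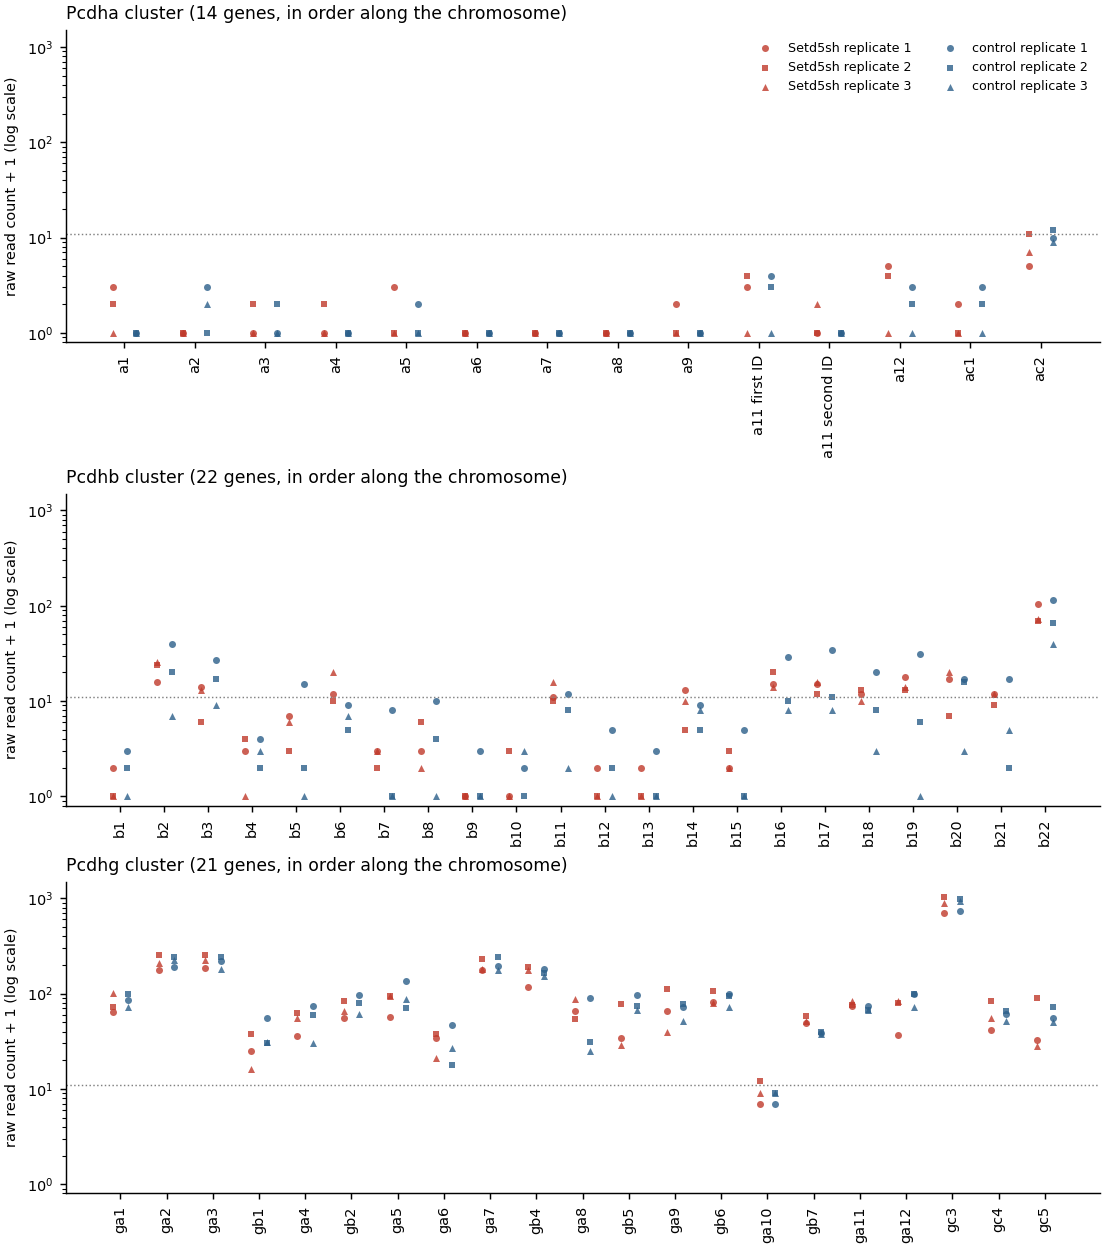
Raw read count plus 1 (log axis) of each of the 57 members in each library, one panel per cluster, genes in chromosome order and named without the prefix Pcdh; the first and second a11 identifiers are ENSMUSG00000007440 and ENSMUSG00000102206. Red marks Setd5sh (left of each position), blue control, and the dotted line a count of 10; no Pcdha member averages above it, 8 of 22 Pcdhb members reach a mean of 10, and 20 of 21 Pcdhg members do.

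Pcdha members were barely detected. The 14 genes together had 16, 19 and 7 counts in Setd5sh replicates 1, 2 and 3 and 19, 16 and 9 counts in control replicates 1, 2 and 3, or 0.617 ± 0.230 CPM in Setd5sh and 0.535 ± 0.0622 CPM in control (SD, n = 3 each). The groups overlapped, and the exact 95% Poisson intervals of the single libraries, which cover counting error only, ran from 0.146 to 1.32 CPM. Of the 86 Pcdha counts, 48 came from 1 gene, Pcdhac2, a c-type member known in the mouse for spacing serotonergic axons. It had 4, 10 and 6 counts in Setd5sh and 9, 11 and 8 counts in control, and was the only Pcdha member with a count in all 6 libraries. The other c-type member, Pcdhac1, had 4 counts in all 6 libraries together.

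The 12 alternate Pcdha genes had 11, 9 and 1 counts in Setd5sh libraries and 8, 4 and 1 counts in control libraries. The most counted of them were Pcdha12, at 4, 3 and 0 in Setd5sh against 2, 1 and 0 in control, and Pcdha11 under ENSMUSG00000007440, at 2, 3 and 0 in Setd5sh against 3, 2 and 0 in control. Pcdha6, Pcdha7 and Pcdha8 had 0 counts in every library, which allows up to 3 counts, or 0.094 to 0.153 CPM of the total count depending on the library. Pcdha4 has only 404 unshared bases, since a readthrough gene model that spans from Pcdha to Pcdhg is annotated over its exon, so its single count is no measure of its level. Pcdha11 under ENSMUSG00000102206 also had a single count. The antisense gene Gm10545 overlaps 2486 bases of its first exonic block and 83.2% of its length is shared, so its level is poorly measured too. At this depth no difference between groups in any Pcdha gene was detectable, and none of the 14 was tested because none reached a mean of 10 counts.

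Pcdhb members were low but detected. Of 22 genes, 11 had a count in all 6 libraries, none was at 0 in all, and 8 reached a mean of 10 counts. Summed over the cluster, Setd5sh libraries had 264, 201 and 240 counts, or 13.4, 7.16 and 12.5 CPM, and control libraries 396, 169 and 93 counts, or 12, 5.99 and 4.78 CPM. Setd5sh replicates 1 and 3 and control replicate 1 were high, the other 3 libraries low, and the groups overlapped. The means were 11 ± 3.37 CPM in Setd5sh and 7.58 ± 3.84 CPM in control (SD, n = 3 each), a log2 ratio of 0.54 within the spread of the replicates. Same-numbered pairs gave 0.16, 0.26 and 1.38, and the third pair had the widest; the ratio was 1.03 without control replicate 1 and 0.29 without control replicate 3.

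The libraries differed in Pcdhb by more than counting error. The exact 95% Poisson interval was 10.9 to 14.1 CPM in Setd5sh replicate 3 and 6.20 to 8.22 CPM in Setd5sh replicate 2, and it was 10.8 to 13.2 CPM in control replicate 1 and 3.86 to 5.86 CPM in control replicate 3. The 3 libraries high in Pcdhb also had the highest sums over 11 neuronal markers, which were 259.6, 158.6 and 260.0 CPM in Setd5sh replicates 1, 2 and 3 and 182.7, 112.1 and 135.0 CPM in control replicates 1, 2 and 3. All 11 were tested, 0 passed, and 10 had a positive log2 fold change. At an unadjusted p under 0.05 by edgeR, 3 (Tubb3, Ina and Nefm) were higher in Setd5sh, as were 0.845% of all tested genes. Tubb3, the most abundant, stood at 105.2, 56.2 and 104.8 CPM in Setd5sh and 34.3, 31.1 and 49.8 CPM in control. Tubb3 did not follow the sums, as control replicate 1 was below Setd5sh replicate 2 and control replicate 3. The 3 libraries high in Pcdhb had the lowest sums over 7 pluripotency markers, which were 22.3, 54.6 and 8.05 CPM in Setd5sh and 17.9, 73.1 and 23.4 CPM in control. Sums over 6 motor neuron markers were 31.2, 45.5 and 29.1 CPM in Setd5sh and 35.1, 55.1 and 34.8 CPM in control, highest in replicate 2 of each group. The part of any of these in the Pcdhb values was not tested, and in bulk RNA a change in the share of cells of a type cannot be told apart from a change in RNA per cell.

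**Figure D2:**
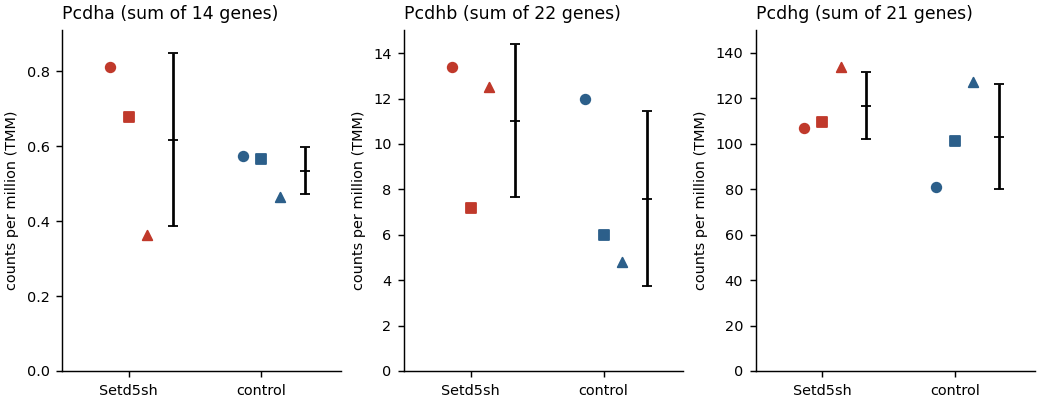
Summed CPM of each cluster in each library (circle, square and triangle are replicates 1, 2 and 3), Setd5sh left of control, with the group mean and SD in black; each y axis starts at 0 and has its own scale. Groups overlap in all 3 clusters, and Pcdhb spans 4.78 to 13.4 CPM over the 6 libraries.

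Within Pcdhb the counts were uneven. Pcdhb22, the last gene of the cluster, had 104, 68 and 71 counts in Setd5sh and 114, 65 and 39 counts in control, which is 34.3% ± 4.92 of the cluster's counts in Setd5sh and 36.4% ± 6.81 in control (SD, n = 3 each). Per unshared kilobase it averaged 0.518 CPM over all libraries, and Pcdhb2, the next, 0.299 CPM. Pcdhb2 had 15, 23 and 25 counts in Setd5sh and 39, 19 and 6 counts in control. Pcdhb16 had 14, 19 and 13 counts in Setd5sh and 28, 9 and 7 counts in control. In each of these genes control replicate 1 had the most counts of the 6 libraries, which is also the library of greatest depth. Pcdhb17 had 14, 11 and 15 counts in Setd5sh and 33, 10 and 7 counts in control, and Pcdhb3 had 13, 5 and 12 counts in Setd5sh and 26, 16 and 8 counts in control. At the low end Pcdhb1, Pcdhb9, Pcdhb10, Pcdhb12 and Pcdhb13 had 2 to 6 counts each over all 6 libraries.

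The Pcdhb members ranked alike across libraries. Spearman's rho of the 22 CPM values between pairs of libraries ran from 0.58 to 0.89 within groups and from 0.65 to 0.92 between groups, as a description over genes that share a library. Single genes varied more. Pcdhb19 had 30 counts in control replicate 1 and 0 in control replicate 3, and Pcdhb5 had 14 and 0.

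The Pcdhg cluster was the one clearly expressed. All 21 members had counts in all 6 libraries, and the cluster sum was 106.8, 109.7 and 133.9 CPM in Setd5sh and 81.1, 101.0 and 127.4 CPM in control. The mean was 116.8 ± 14.9 CPM in Setd5sh and 103.2 ± 23.2 CPM in control (SD, n = 3 each), a log2 ratio of 0.18. The groups overlapped, and control replicate 1 was the lowest library. Leaving out Setd5sh replicate 3 gave 0.07, leaving out control replicate 1 gave 0.03, and leaving out control replicate 3 gave 0.36.

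Pcdhgc3, a c-type gene whose product in the mouse acts on Wnt signalling through Axin1 and promotes dendrite branching, was by far the most counted member. It had 708, 1038 and 901 counts in Setd5sh and 735, 985 and 944 counts in control, or 35.9, 37.0 and 46.8 CPM in Setd5sh and 22.2, 34.9 and 48.6 CPM in control. The groups overlapped, with the lowest and the highest library both among controls. Per unshared kilobase it averaged 20.6 CPM, above 87.0% of 19536 protein-coding genes with at least 1000 unshared bases. An antisense gene, BC037039, is annotated over 1559 bases of its first exon, which leaves 1821 unshared bases; its level by the deposited FPKM was 6.8. The log2 fold change was 0.18 (SE 0.28, edgeR adjusted p = 0.986), and it was -0.07 without control replicate 1.

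The other c-type members of Pcdhg were far below Pcdhgc3, and Pcdhgc5 had the lowest level per unshared kilobase of the Pcdhg members that have one. Pcdhgc4, which in the mouse is the member required for interneuron survival, had 41, 82 and 55 counts in Setd5sh and 60, 64 and 50 counts in control, a level of 0.695 CPM per unshared kilobase over all libraries. Pcdhgc5 had 32, 88 and 27 counts in Setd5sh and 55, 72 and 49 counts in control, at 0.467 CPM per unshared kilobase, beside 0.469 for Pcdhga6, the next. That rank depends on length, as Pcdhgc5 has a first exonic block of 5567 bases and 4606 unshared bases, against 2614 unshared in Pcdhga6. Without division by length Pcdhgc5 averaged 2.15 CPM over the 6 libraries, above Pcdhga6 at 1.23 CPM. The groups overlapped for Pcdhgc4 and for Pcdhgc5. Pcdhgc3 was above Pcdhgc4 and Pcdhgc5 in all 6 libraries.

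**Figure D3:**
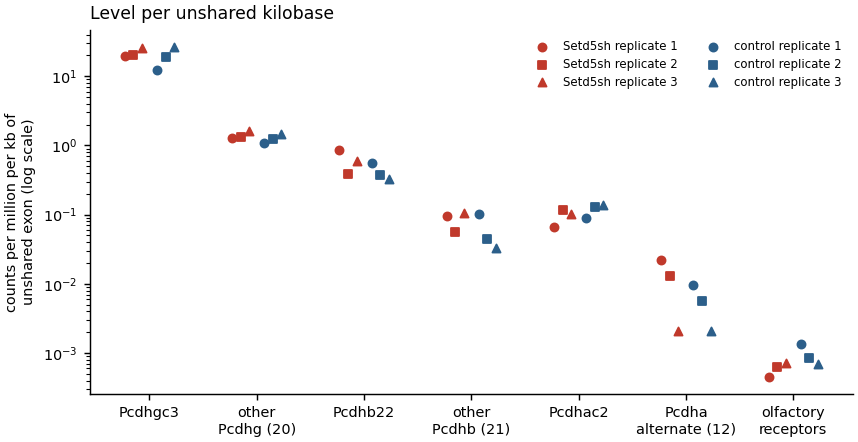
CPM per kilobase of unshared exon (log axis) in each library for Pcdhgc3, the other 20 Pcdhg genes, Pcdhb22, the other 21 Pcdhb genes, Pcdhac2, the 12 alternate Pcdha genes and, for scale, 1135 olfactory receptor genes; Setd5sh in red at left, control in blue. Pcdhgc3 averages 20.6 CPM per kilobase and the alternate Pcdha genes 0.00914, still above the olfactory receptor genes at 0.00078.

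Among the alternate Pcdhg genes, Pcdhga2, Pcdhga3, Pcdhga7 and Pcdhgb4 had the most counts. Pcdhga2 had 177, 253 and 211 counts in Setd5sh and 190, 244 and 227 counts in control, and Pcdhga3 183, 252 and 225 counts in Setd5sh and 218, 242 and 181 counts in control. The groups overlapped in both. Pcdhga7 had 176, 230 and 182 counts in Setd5sh and 194, 240 and 177 counts in control, and Pcdhgb4 116, 187 and 174 counts in Setd5sh and 179, 165 and 151 counts in control. Per unshared kilobase, averaged over the 6 libraries, Pcdhga2, Pcdhga3 and Pcdhga7 stood close together, at 3.56, 3.49 and 3.26 CPM, followed by Pcdhga11 at 2.48 CPM and Pcdhgb4 at 1.89 CPM. The 4 most counted genes made up 29.1% to 31.3% of the cluster's counts in every library. At the other end Pcdhga10 had only 6 to 11 counts per library, but its whole variable exon is overlapped on the opposite strand by Gm26672, which leaves it 0 unshared bases. The same gene overlaps parts of Pcdhgb7, Pcdhga11 and Pcdhga12.

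The make-up of the Pcdhg counts differed little between groups relative to its spread. Pcdhgc3 gave 34.1% ± 0.728 of them in Setd5sh and 33.3% ± 5.48 in control, the 12 Pcdhga genes 45.0% ± 1.70 in Setd5sh and 44.2% ± 3.23 in control, and the 6 Pcdhgb genes 16.8% ± 0.937 in Setd5sh and 18.1% ± 2.33 in control (SD, n = 3 each). Pcdhgc3 gave 27.4% in control replicate 1 and 38.1% in control replicate 3, the lowest and highest shares of the 6 libraries. The rank order of the 21 genes was also shared, with rho from 0.71 to 0.93 within groups and from 0.77 to 0.88 between groups.

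**Figure D4:**
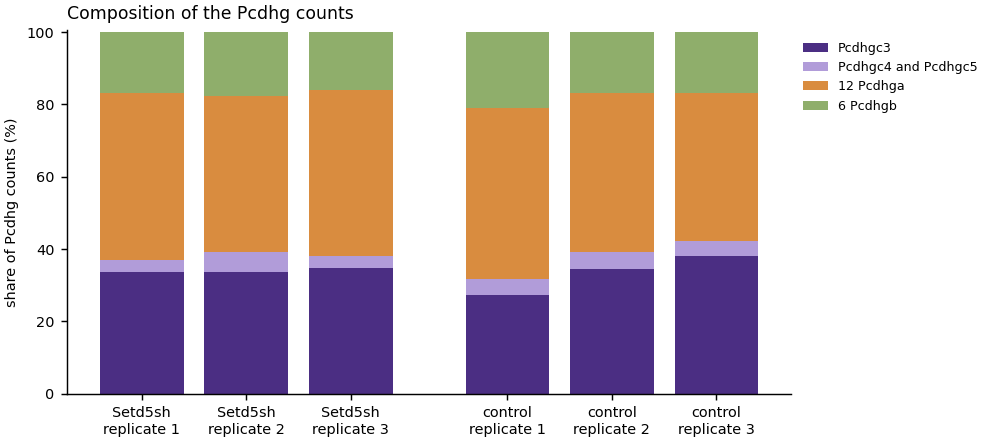
Share in percent of the Pcdhg counts taken by Pcdhgc3, by Pcdhgc4 and Pcdhgc5 together, by the 12 Pcdhga genes and by the 6 Pcdhgb genes in each library, Setd5sh at left. Pcdhgc3 takes 27.4% to 38.1% in the 6 libraries and is lowest in control replicate 1.

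The comparison of Setd5sh with control asks whether targeting Setd5, a SET domain protein, goes with another level of these genes. Genes with a mean of at least 10 counts over the 6 libraries were tested, which were 15984 in all and 28 of the 57 members, 8 in Pcdhb and 20 in Pcdhg. None of the 28 members passed edgeR's quasi-likelihood test at an adjusted p under 0.05, and the share called among all tested genes was 0%. At an unadjusted p under 0.05 the count was 0 of 28 members, against 1.91% of all tested genes (305 genes, of which 0.845% of those tested were higher in Setd5sh and 1.06% lower). DESeq2 and limma-voom also called 0 members and had 0 at an unadjusted p under 0.05. With the replicate number as a block, edgeR again called 0 genes, and 1 of 28 members, Pcdhga8, and 574 of 15984 genes had an unadjusted p under 0.05. A positive log2 fold change was found for 7 of 8 Pcdhb members and 16 of 20 Pcdhg members, against 47.2% of all tested genes, and the medians were 0.47 and 0.18, against -0.02 for all tested genes. Markers of motor neuron progenitors and of neurons had medians of 0.40 and 0.38, and their part in the members' values was not tested. Members share libraries and are not replicates, and the number of members with a positive value ran from 18 to 24 of 28 when single libraries were left out.

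**Figure D5:**
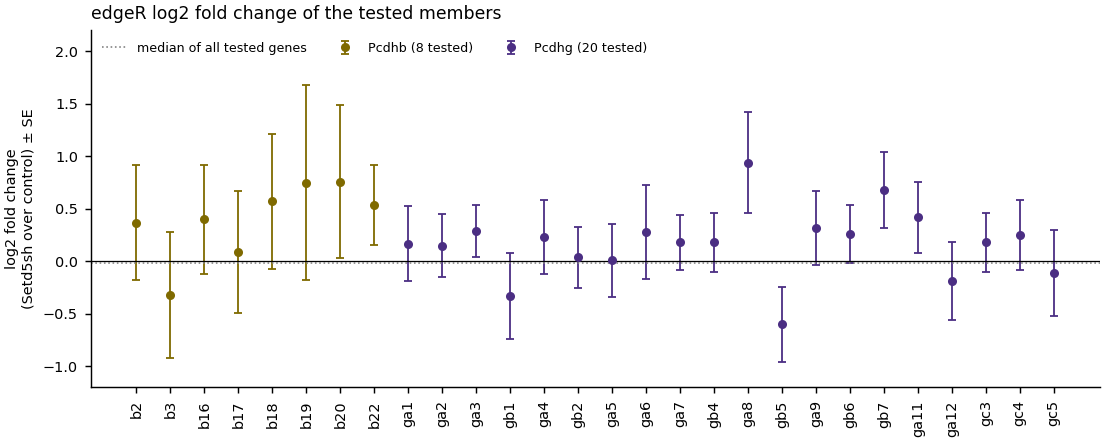
edgeR log2 fold change (Setd5sh over control) with its standard error for the 28 tested members in chromosome order, Pcdhb in olive and Pcdhg in purple; the dotted line is the median of all tested genes at -0.02. Values run from -0.60 for Pcdhgb5 to 0.94 for Pcdhga8, and none passed the adjusted threshold.

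The largest value among the 28 belonged to Pcdhga8. It stood at 3.25, 1.89 and 4.52 CPM in Setd5sh and 2.66, 1.06 and 1.23 CPM in control, from 64, 53 and 87 counts in Setd5sh and 88, 30 and 24 counts in control. Control replicate 1 lay among the Setd5sh libraries, so the groups overlapped. The log2 fold change was 0.94 (SE 0.48, unadjusted p = 0.0792, edgeR adjusted p = 0.986), and it was 0.57 without Setd5sh replicate 3 and 1.47 without control replicate 1. It was higher in Setd5sh in all 3 same-numbered pairs, as were 14.5% of all tested genes.

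Pcdhgb7 was 1 of 2 tested members whose groups did not overlap. It stood at 2.44, 2.03 and 2.60 CPM in Setd5sh and 1.15, 1.38 and 1.90 CPM in control, which gave a log2 difference of 0.68 (SE 0.36, edgeR adjusted p = 0.986). The other was Pcdhgb6, named here after its values were seen, at 4.11, 3.77 and 4.05 CPM in Setd5sh and 2.96, 3.3 and 3.70 CPM in control. All 3 Setd5sh values were above all 3 control values in these 2 of 28 members and in 3.24% of all tested genes. Such a pattern is thus not particular to these members, and whether the shares differ was not tested. Pcdhga11 had 3.70, 2.67 and 4.31 CPM in Setd5sh and 2.2, 2.38 and 3.39 CPM in control, which overlapped (log2 fold change 0.42, SE 0.34).

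Values below 0 were led by Pcdhgb5. It stood at 1.67, 2.74 and 1.45 CPM in Setd5sh and 2.90, 2.62 and 3.45 CPM in control, which gave a log2 difference of -0.60 (SE 0.36, unadjusted p = 0.128, edgeR adjusted p = 0.986), and Setd5sh replicate 2 lay among the controls. For Pcdhgb1 the log2 fold change was -0.33 (SE 0.41), and Pcdhga12 was at -0.19 (SE 0.37). Pcdhgb5 and Pcdhga8, which are next to each other in the cluster, had the lowest and the highest value of the 28. No tested member had all 3 Setd5sh values below all 3 control values, against 2.79% of all tested genes.

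Among Pcdhb members Pcdhb22 had the smallest p. It stood at 5.28, 2.42 and 3.69 CPM in Setd5sh and 3.44, 2.30 and 2.01 CPM in control, which gave a log2 difference of 0.54 (SE 0.38, unadjusted p = 0.192, edgeR adjusted p = 0.986). Pcdhb20 was at 0.76 (SE 0.73) on the log2 scale and Pcdhb18 at 0.57 (SE 0.64), while Pcdhb3 was the 1 tested Pcdhb member below 0, at -0.32 (SE 0.60). Standard errors of the 8 tested Pcdhb genes ran from 0.38 to 0.93, against 0.25 to 0.48 in Pcdhg. Pcdhb6, just under the count minimum with a mean of 9.5 and named after its values were seen, had 11, 9 and 19 counts in Setd5sh and 8, 4 and 6 counts in control. In CPM all 3 of its Setd5sh values were above all 3 control values, as in 3.24% of all tested genes, but Pcdhb6 was not tested.

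Genes that act on or with clustered protocadherins were measured beside them. Of 27 regulators of promoter choice and silencing, such as CTCF, cohesin and its loaders and release factors, DNA methyltransferases, TET enzymes, Smchd1 and Setdb1, all 27 were tested and 0 passed in either direction; 12 log2 fold changes were positive, and the median was -0.03. The 4 with the smallest p were Tet2, Smc3, Wapl and Stag2, with log2 fold changes of -0.68, -0.72, -0.56 and -0.80. In all 4, control replicate 1 was the highest library. Smc3, a core subunit of cohesin, stood at 88.9, 76.0 and 89.2 CPM in Setd5sh and at 266.7, 79.5 and 73.2 CPM in control, and Stag2, another subunit, at 54.2, 46.6 and 75.2 CPM in Setd5sh and 204.1, 55.8 and 46.6 CPM in control. The other 5 libraries overlapped between groups in both genes.

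Of 20 intracellular partners and effectors 19 were tested and 0 passed, with a median of 0.03; for the kinase gene Ret the log2 fold change was 0.32 (SE 0.22). Of 12 non-clustered protocadherins, single genes outside the 3 clusters, 5 were tested and 0 passed. Pcdh1 stood at 41.1, 37.0 and 43.2 CPM in Setd5sh and 22.9, 31.9 and 33.1 CPM in control, without overlap (log2 fold change 0.47, SE 0.20, unadjusted p = 0.0416, edgeR adjusted p = 0.986). Pcdh8 did not overlap either, at 3.15, 2.46 and 2.80 CPM in Setd5sh and 2.11, 1.6 and 1.95 CPM in control. Of all tested genes, 3.24% had all 3 Setd5sh values above all 3 control values. An unadjusted p under 0.05 by edgeR was found for 1.91% of them. Of 19 classical cadherins 11 were tested and 0 passed, with a median of 0.01. Cdh4 stood at 15.8, 11.4 and 13.2 CPM in Setd5sh and 10.8, 8.47 and 10.2 CPM in control, without overlap. Cdh20 went the other way, with a log2 fold change of -1.03 (SE 0.57) and groups that overlapped. Cdh7, Cdh18 and, among the partners, Nlgn1 had too few counts to be tested. In each of them every Setd5sh value was below every control value.

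Genes beside the clusters were measured too. Within 200 kb of the outermost members, or between members, 18 other protein-coding genes are annotated, of which 3 are the readthrough models from Pcdha to Pcdhg, listed at 0 in every library. Those 3 models have 0 unshared bases, so where reads in shared bases are left out their zeros are no measure of their level. Of the 14 tested, 0 passed and the median log2 fold change was 0.02. Hdac3, which encodes a histone deacetylase and lies downstream of the Pcdhg cluster, stood at 119.6, 104.9 and 142.1 CPM in Setd5sh and 84.8, 101.6 and 134.1 CPM in control. Taf7, a transcription factor subunit gene that lies between Pcdhb and Pcdhg, had 25.7, 31.8 and 35.7 CPM in Setd5sh and 41.8, 36.2 and 27.4 CPM in control. Slc25a2, which lies beside it, had 2 to 5 counts per library.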

How the data were processed

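Reads were sequenced from 6 libraries, 3 labelled Setd5sh and 3 control. The authors deposited 1 table of 55400 genes with raw read counts, FPKM values and exonic lengths; the deposited FPKM equals the count scaled by that length and the column total to within 0.005. Per the submitters' processing notes HISAT2, SAMtools, HTSeq, DESeq2 and mm10 were used; their versions and roles, the annotation release and the strand setting were not stated. Of the identifiers, 99.5% were found in GENCODE M21, and 99.0% of those had the same exonic length.

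The members and gene lists were chosen with earlier results of these data known. Genes named are Setd5, the c-type members, the 5 most counted members of each cluster, up to 3 per direction with the smallest p, and up to 4 of each list; members named for low counts, overlapping annotation or a pattern outside that rule were picked after their values were seen. The olfactory receptor set was added after the data were seen. Counts were tested with edgeR 4.0.16 (quasi-likelihood, TMM, mean count of at least 10, Benjamini-Hochberg over 15984 genes, two-sided, R 4.3.3); DESeq2 1.42.0 and limma 3.58.1 were alternatives. CPM uses TMM-scaled totals. Other scalings, other count filters, the replicate block with and without GC and length trends removed, and leaving out each library were tried. Fold changes are Setd5sh over control. Summed counts of clusters were not tested. In simulated data of 15984 genes, 200 of them altered, edgeR called 79% of the genes altered 4-fold, 29% of those altered 2-fold and 20 unaltered genes. Simulated counts were drawn for each gene independently at its estimated dispersion, without deviations that a library shares across genes. The rates cover genes of all levels and do not give the power for the members. Windows of 100 bases within unshared exons were found in another gene's transcript for at most 10.7% of windows in any member that has such windows. Pcdha4, Pcdha11 under ENSMUSG00000102206 and Pcdhga10 have none in the transcript examined.

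Both groups carry replicate numbers 1 to 3. Libraries of equal number deviated from their group means together, with correlations of 0.149, 0.608 and 0.125. As each exceeds 0.1, the numbers may pair the libraries, on the evidence of the values alone. That evidence is weak, since the highest correlation of control replicate 1 was with Setd5sh replicate 3 (0.169). The main test left the replicate number out, and only the fits with the replicate block used it. No 2 libraries of a group agreed within sampling noise.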

Additional observations from a re-analysis of the deposited data

How the results depend on the processing

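With no filter on low counts 18 genes were called higher and 55 lower in Setd5sh, against 0 and 0 in the main test, and 28 and 34 were called with the replicate block without the libraries numbered 1, which leaves 1 residual degree of freedom and was added once the data had been seen; the cause was not tested. No clustered protocadherin gene was called in any of these or in the other settings run. With the replicate block alone 0 genes were called in either direction, and the block changed no call of a member (lowest adjusted p = 0.932 by edgeR). The log2 ratio of the Pcdha sum, 0.21, was 0.89 without Pcdhac2 and 1.10 without both c-type genes, which leaves 21 counts in Setd5sh and 13 in control. On the authors' exonic length the level was 0.00739 CPM per kilobase for Pcdha and 0.983 for Pcdhg, against 0.0189 and 1.96, because that length includes the constant exons. Leaving out single libraries gave log2 ratios of the sums between -0.04 and 0.48 for Pcdha, 0.29 and 1.03 for Pcdhb and 0.03 and 0.36 for Pcdhg. Among the members named by rule, log2 fold changes that turned sign when a library was left out ranged from -0.22 to 0.77 for Pcdhb17, -0.61 to 0.11 for Pcdhb3, -0.08 to 0.42 for Pcdhga2, -0.58 to 0.06 for Pcdhga12, -0.04 to 0.35 for Pcdhgb4, -0.07 to 0.48 for Pcdhgc3 and -0.56 to 0.07 for Pcdhgc5; Pcdhga2 was also at -0.02 with the replicate block without the libraries numbered 1. Depth limits Pcdha and most Pcdhb genes.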
